A study of Mus musculus with 11 samples.

Results

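The genes described here build and run the mitotic apparatus: the kinetochore that joins each chromosome to the spindle, the spindle checkpoint, the mitotic kinases, the spindle motors and the factors of mitotic entry and exit. The list held 46 genes, chosen by symbol, and 45 of them had a row among the 22600 genes of the merged count table. Cenpq had no row in the merged table used here, and its values were taken from the counts deposited for each library. All 45 passed the filter on low counts and were among the 16496 genes tested. The question was how these genes differed between 4 control and 7 BMAd-DTA mice, from each of which 1 library was made of the whole distal tibia.

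The inner kinetochore is a protein platform on centromeric chromatin that carries the histone variant Cenpa. It recruits the outer kinetochore, whose Ndc80 complex and Knl1 scaffold hold microtubules and the checkpoint proteins Bub1, Bub1b, Bub3, Mad2l1 and Ttk. The checkpoint holds back the ubiquitin ligase APC/C with its activator Cdc20 until all chromosomes are attached, after which cyclin B is degraded and the cell leaves mitosis. Most of these genes are transcribed in G2 and M phase, so their RNA is found mainly in dividing cells, which in a bone with marrow are largely erythroid, granulocyte and B cell precursors. In a bulk sample, fewer dividing cells and less mitotic RNA per cell cannot be told apart.

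In the BMAd-DTA genotype, diphtheria toxin A is made from the Rosa26 locus once Cre has removed a stop cassette in BM adipocytes, and the toxin kills these cells. Cre was produced from the Adipoq locus only in cells with a history of Osterix-FLPo, and according to the study's methods all mice, controls included, carried both Osterix-FLPo and the FLPo-dependent Adipoq-Cre (FAC). Cre reached only a small subset of the marrow adipogenic precursors, and its efficiency was below complete. The strain was C57BL6/SJL, the age 24 weeks by the labels, and food was given ad libitum. The legends describe the mice of the RNA sequencing as male, while Xist had 13810 to 20260 counts in every library and Ddx3y, Eif2s3y, Kdm5d and Uty had 0 to 1 counts. Library totals were 16969529 to 18637663 counts. Of the adipocyte markers, 11 of 11 tested were lower in BMAd-DTA mice, with summed levels of 1188 to 1980 CPM in controls and 509 to 1418 CPM in BMAd-DTA mice, so adipocyte RNA was lower and not absent. CPM are counts scaled to 1e6 of the TMM-scaled library size.

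All 45 tested mitotic genes had a negative log2 fold change in BMAd-DTA mice, where 49.6% of all genes tested did, but when libraries were scaled by their erythroid marker counts, an alternative chosen after the data were seen, 8 of the 45 did. That scaling shifts every gene by a similar amount and moved the median of all genes to 0.395. All 45 lay below it, which restates the result with TMM factors and is not separate support. Directions given from here on, unless another scaling is named, are those with TMM factors. The median log2 fold change was -0.33, against 0.0018 over all genes, and single genes were between 6.61% and 32.2% lower, with a median of 20.2%. With edgeR's quasi-likelihood test, 0 of the 45 reached an adjusted p of 0.05 (adjusted over all genes tested), and in the lower direction 0.00606% of all genes did, which is 1 gene. At an unadjusted p of 0.05, 39 were lower, against 8.53% of all genes. DESeq2 at its default settings called 24 of the 45 lower at an adjusted p of 0.05, against 2.7% of the genes to which it gave an adjusted p. In 7 genes every BMAd-DTA library lay below every control, against 1.04% of all genes: Cenpu, Cenpe, Spc25, Kif4, Kif20b, Kif23 and Kif20a. These mitotic genes thus shared a small negative difference that was common among them, and whether it counted as significant gene by gene depended on the test.

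**Figure D1:**
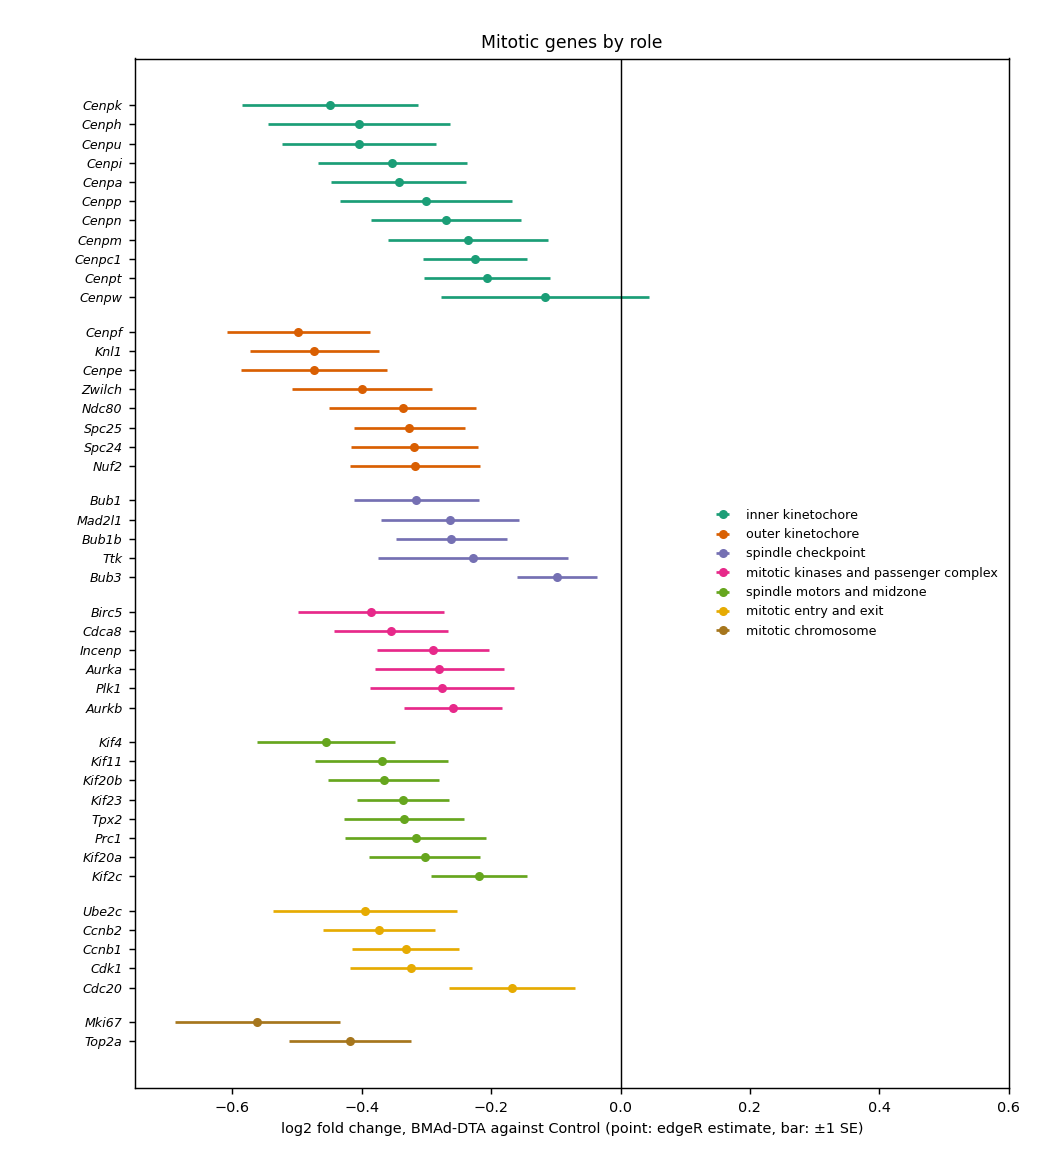
Log2 fold change of each of the 45 mitotic genes in BMAd-DTA against control tibiae (horizontal axis, edgeR estimate as a point, 1 SE as a bar), grouped and coloured by role. With TMM factors all points lie left of 0, from -0.56 for Mki67 to -0.099 for Bub3 (8 of 45 do with erythroid marker scaling), and the bar of Cenpw alone crosses 0.

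The genes moved together from library to library. Deviations were taken as log2 CPM minus the mean of the 4 controls. Control 1 had a median deviation of 0.24 over the 45 genes and was the highest control in 41 of them, while Control 3 had a median of -0.17 and was the lowest control in 31. BMAd-DTA libraries had medians from -0.47 in BMAd-DTA 2 to -0.18 in BMAd-DTA 5. BMAd-DTA 2 was the lowest of its group in 21 genes and BMAd-DTA 4 in 15, and BMAd-DTA 5 was the highest of its group in 22. In 25 of the 45 genes at least 6 of the 7 BMAd-DTA libraries lay below every control, against 3.81% of all genes. The number of genes without overlap was 23 without Control 3 (3.6% of all genes), 21 without BMAd-DTA 5 (2.01% of all genes) and 12 without Control 4 (3.24% of all genes). Control 3 and BMAd-DTA 5 were the libraries that most often made the groups overlap in these same genes. Leaving either out thus raises the count by construction, and the shares of all genes are not a like background. Without Control 3, 7 genes passed edgeR's adjusted p of 0.05 (Knl1, Cenpf, Kif11, Kif20b, Kif4, Ccnb2 and Top2a), against 0.692% of all genes in the lower direction, and without Control 4 there were 2 (Cenpf and Cdca8), against 0.352%. The same limit holds for these calls. Without Control 1, the highest control, the median was -0.23 and 30 genes kept an unadjusted p under 0.05. The share of all genes at that p without Control 1 is not given here.

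**Figure D2:**
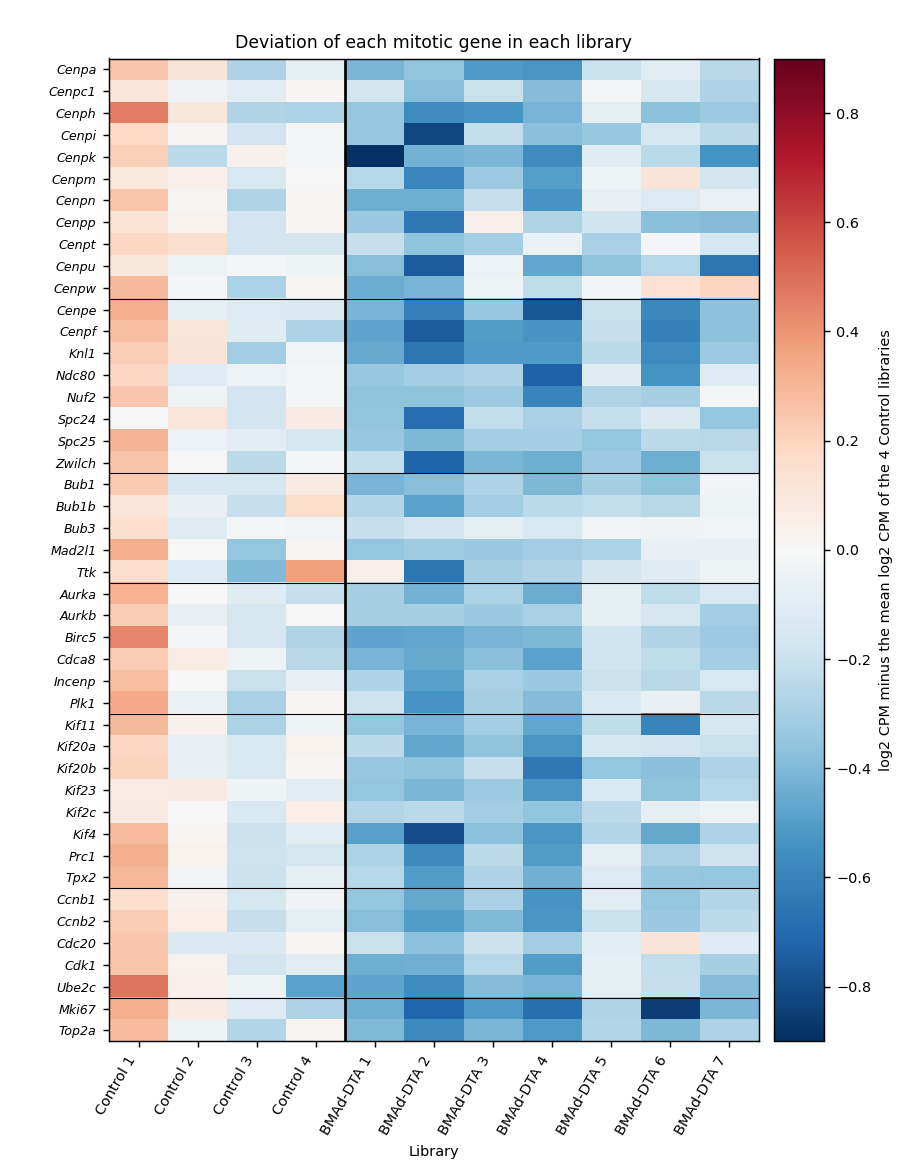
Log2 CPM of each mitotic gene (rows, by role) in each library (columns) minus the mean log2 CPM of the 4 controls, with red above and blue below that mean. The column of Control 1 is red in nearly every row, the columns of BMAd-DTA 2 and BMAd-DTA 4 are the darkest blue, and that of BMAd-DTA 5 is the palest of the BMAd-DTA group.

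Markers of erythroid progenitors and erythroblasts moved with these genes. All 11 tested erythroid markers were lower in BMAd-DTA mice (median log2 fold change -0.53), and 10 had an unadjusted p under 0.05 and 7 an adjusted p under 0.05 with DESeq2, but 0 with edgeR. Klf1, another defining marker, had no row in the merged table used here, and no tested marker was at 0. Their summed level was 9704, 8401, 7433 and 4775 CPM in Control 1 to 4 and 4765 to 7499 CPM in the BMAd-DTA libraries, with BMAd-DTA 5 the highest. The summed level of the 45 mitotic genes was 7654, 6369, 5625 and 5682 CPM in Control 1 to 4 and 4251 to 5425 CPM in the BMAd-DTA libraries, again with BMAd-DTA 5 the highest. Control 4, whose erythroid level was that of the BMAd-DTA libraries, kept a mitotic sum above all 7 of them. Per 100 CPM of erythroid markers, the mitotic sum was 78.9, 75.8, 75.7 and 119 CPM in Control 1 to 4 and 72.4 to 99.1 CPM in the BMAd-DTA libraries, so on this scale the groups overlapped and the median was higher in BMAd-DTA mice (89.2 against 77.3). With the erythroid marker score as a covariate, an alternative chosen after the data were seen, 43 of the 45 genes stayed negative with a median of -0.20, and 8 rather than 39 had an unadjusted p under 0.05. Those 8 were Knl1, Cenpf, Kif20b, Kif23, Kif4, Ccnb2, Mki67 and Top2a. Over all 16496 genes, edgeR with this covariate called 0 in either direction at an adjusted p of 0.05. Without the covariate it called 1 lower and 12 higher. The share of all genes at an unadjusted p of 0.05 with the covariate is not given here, so the fall from 39 to 8 has no background beside it. With erythroid marker scaling the median of the 45 genes was 0.075, below the 0.395 of all genes, 0 had an unadjusted p under 0.05 with a negative sign, and Cenpk, Cenpu, Knl1, Cenpe, Cenpf, Kif4, Mki67 and Top2a were the 8 that stayed negative. All role medians but that of the mitotic chromosome genes (-0.073) turned positive under it.

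Markers of other cell types differed in direction and size. The median of the 15 leukocyte markers was -0.014, with summed levels of 7143 to 7642 CPM in controls and 6506 to 7689 CPM in BMAd-DTA mice. Per 100 CPM of leukocyte markers, the mitotic sum was 74.3 to 107 CPM in controls and 57.3 to 83.4 CPM in BMAd-DTA mice. Of the 8 neutrophil precursor markers, 3 were lower and 5 higher (median 0.049, sums 4073 to 5085 CPM against 3546 to 6213 CPM), and of the 8 mature neutrophil markers 6 were lower (median -0.094, sums 9638 to 12159 CPM against 8361 to 12075 CPM). The 10 pro-B and pre-B cell markers were all higher, with a median of 0.29 and sums of 317 to 710.5 CPM against 459 to 1130.0 CPM, as were the 6 T cell markers (median 0.37). The 8 markers of hematopoietic stem and progenitor cells had a median of -0.021. All 12 osteoblast and osteocyte markers were higher (median 1.06, sums 3075 to 13196 CPM against 15617 to 36483 CPM), as were the 6 chondrocyte markers tested (median 0.19). Macrophage and osteoclast markers divided into 4 lower and 4 higher, and the 6 endothelial markers were lower with a median of -0.097. Skeletal muscle markers varied most within the groups, with sums of 18.5 to 1402 CPM in controls and 19.9 to 1097 CPM in BMAd-DTA mice. All 13 tested had negative log2 fold changes, with a median of -0.89, and 0 had an unadjusted p under 0.05 with edgeR. With a skeletal muscle score as a covariate the 45 mitotic genes all stayed negative (median -0.32, 38 at an unadjusted p under 0.05), as they did with TMM factors taken without muscle, globin and mitochondrial genes (median -0.33). The share of all genes at that p with the muscle covariate is not given here. Beyond these, the erythroid covariate and the scalings by erythroid and by leukocyte markers, the part of cell composition in the mitotic difference was not tested.

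**Figure D3:**
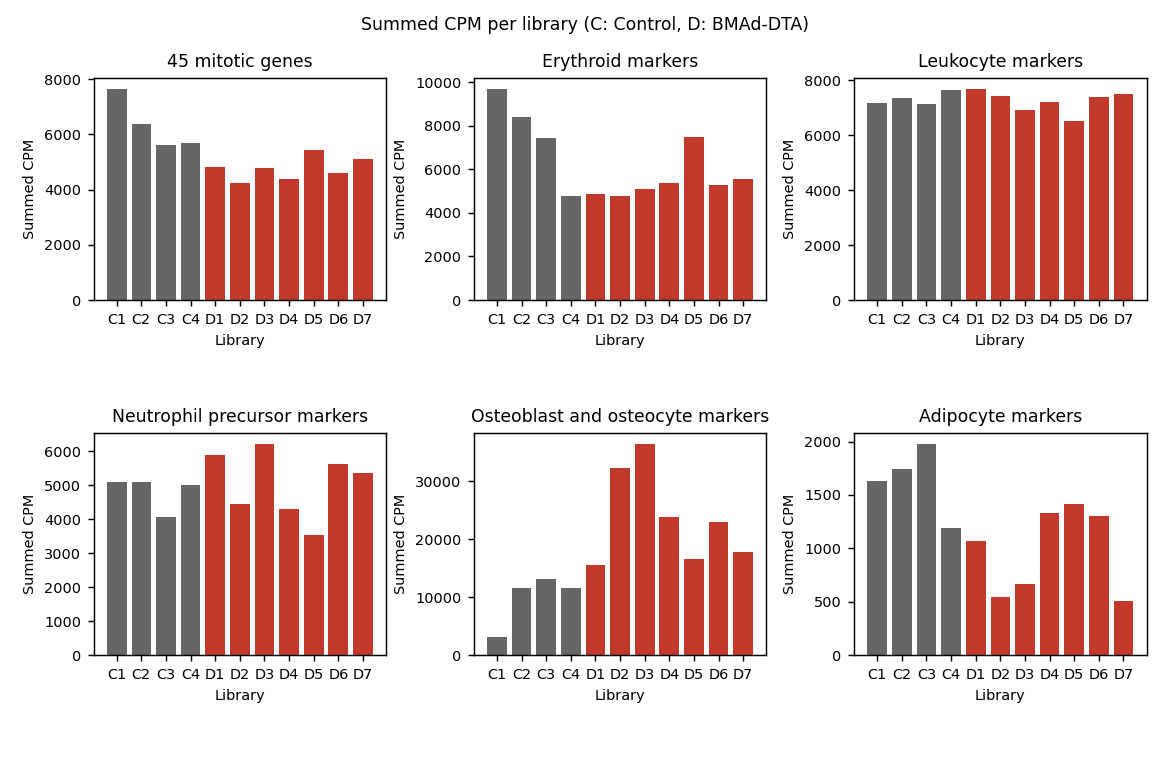
Summed CPM per library (bars, starting at 0) of the 45 mitotic genes and of markers of 5 cell types, with controls (C1 to C4) in grey and BMAd-DTA libraries (D1 to D7) in red. The mitotic sum is 5625 to 7654 CPM in controls and 4251 to 5425 CPM in BMAd-DTA libraries, and the erythroid sums are highest in C1 to C3 and D5.

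The promoters of these genes shared sequence features that the choice of genes did not use. Many cell cycle genes carry a cell cycle homology region (CHR), bound by the DREAM and MuvB complexes, and upstream CCAAT boxes, bound by NF-Y. RefSeq promoter windows on GRCm38, from 250 bases before to 50 after the start, were at hand for 40 of the 46 genes. The CHR letters TTTGAA, or TTCAAA for the other strand, were in 25 of the 40 windows (62.5%), against 20.2% of 27025 genes. Within 50 bases to either side of the start, they were in 57.5% of these genes and 5.72% of all genes. The letters CCAAT, or ATTGG for the other strand, were in 31 of the 40 (77.5%), against 41.1% of all genes. A match is a description of letters and not of binding. The median log2 fold change was -0.34 in the 25 tested genes with a CHR match and -0.32 in the 14 tested without one, and -0.33 in the 30 with and -0.32 in the 9 without a CCAAT match. These medians lay close together. Other spellings of the motifs were not searched for, so the split cannot tell whether the difference depends on a motif, and this was not tested.

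The 120 bases before the start are shown for 8 genes, to let the spacing of the motifs be seen. In 6 a CHR match lies close to the start, and Mki67 has a pair of matches farther away. Ccnb1 has CCAAT letters and neither TTTGAA nor TTCAAA, and other spellings of the CHR were not searched for. The stretches run 5′ to 3′ on the strand of the gene and end at the base before the start. The searched CHR and CCAAT letters of either strand are in capitals. In Cenpw the letters of both motifs overlap.
Cdc20: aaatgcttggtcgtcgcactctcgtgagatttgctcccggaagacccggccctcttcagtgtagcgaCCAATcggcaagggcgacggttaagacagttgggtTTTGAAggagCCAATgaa
Cdk1: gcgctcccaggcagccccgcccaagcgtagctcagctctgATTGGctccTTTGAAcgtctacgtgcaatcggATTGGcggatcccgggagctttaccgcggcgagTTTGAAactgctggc
Ube2c: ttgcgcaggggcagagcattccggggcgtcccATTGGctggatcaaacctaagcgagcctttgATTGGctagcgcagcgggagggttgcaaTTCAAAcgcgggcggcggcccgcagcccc
Kif11: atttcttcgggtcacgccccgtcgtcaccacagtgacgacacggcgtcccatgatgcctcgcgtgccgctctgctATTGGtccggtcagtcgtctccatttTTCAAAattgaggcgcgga
Top2a: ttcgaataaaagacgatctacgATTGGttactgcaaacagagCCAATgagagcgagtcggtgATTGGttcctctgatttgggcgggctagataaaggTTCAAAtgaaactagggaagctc
Cenpw: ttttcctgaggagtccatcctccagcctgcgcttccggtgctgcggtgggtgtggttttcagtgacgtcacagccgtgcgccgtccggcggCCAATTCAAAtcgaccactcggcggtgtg
Mki67: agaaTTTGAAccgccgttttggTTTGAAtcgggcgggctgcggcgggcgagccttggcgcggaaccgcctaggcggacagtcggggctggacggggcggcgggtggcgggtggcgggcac
Ccnb1: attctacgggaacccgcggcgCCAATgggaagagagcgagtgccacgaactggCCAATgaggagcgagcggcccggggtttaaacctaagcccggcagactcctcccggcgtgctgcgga
These stretches lie on GRCm38 at Cdc20 chr4:118437344-118437463 (minus strand), Cdk1 chr10:69352913-69353032 (minus strand), Ube2c chr2:164769809-164769928 (plus strand) and Kif11 chr19:37376262-37376381 (plus strand). The others are at Top2a chr11:99024190-99024309 (minus strand), Cenpw chr10:30200541-30200660 (minus strand), Mki67 chr7:135716380-135716499 (minus strand) and Ccnb1 chr13:100786487-100786606 (minus strand). The CHR nearest to the start began 18 bases before it in Cdc20, 15 in Cdk1, 29 in Ube2c, 19 in Kif11, 23 in Top2a and 25 in Cenpw. In Cdk1 another began at 71 bases, and in Mki67 the matches began at 116 and 98 bases. Among these 8 genes, Mki67 had the largest difference (log2 fold change -0.56) and Cenpw (-0.12) and Cdc20 (-0.17) the smallest. A CHR match lies near the start in Cenpw and Cdc20, as in Cdk1, Ube2c, Kif11 and Top2a. A link between the position of a match and the size of the difference was not tested.

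**Figure D4:**
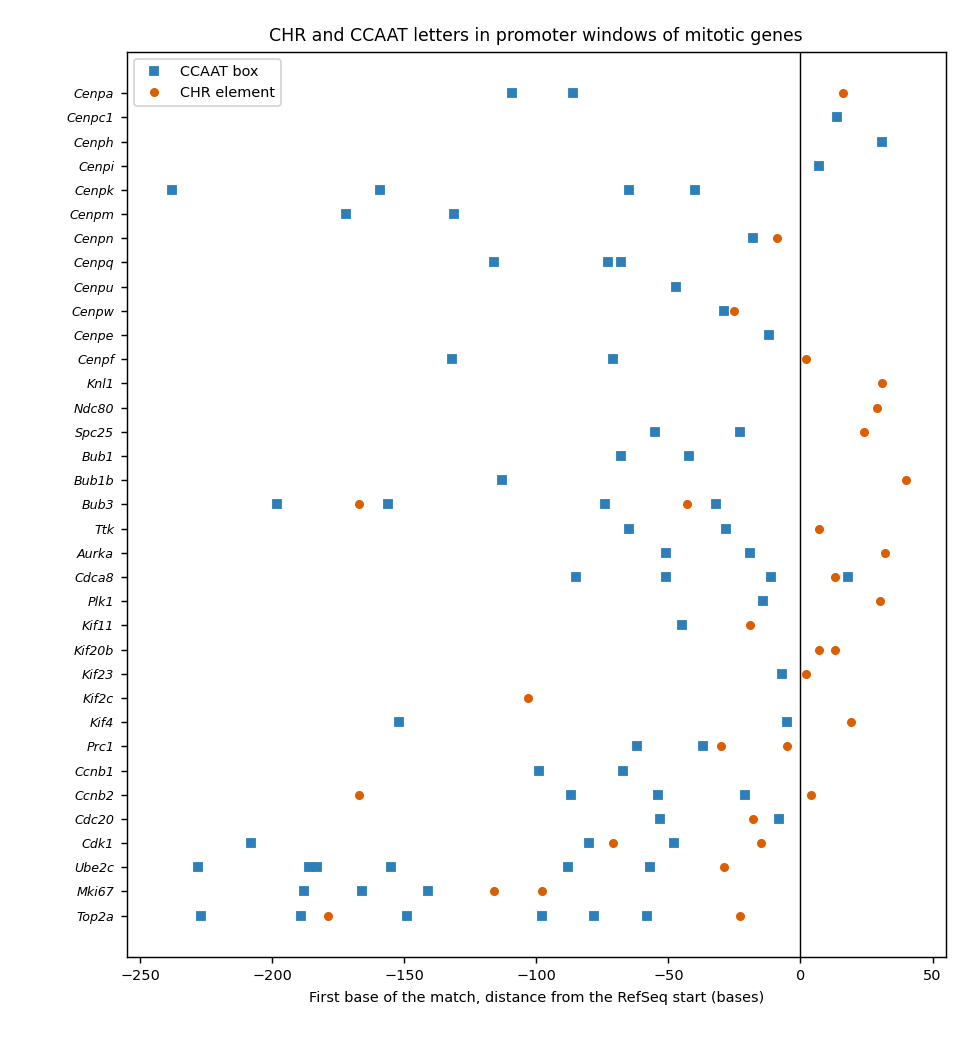
Position of CHR letters (orange circles) and CCAAT letters (blue squares), on either strand, relative to the RefSeq start (horizontal axis, bases, 0 at the start) for the genes with a match, by role from top to bottom; genes with several starts have all of them drawn. CHR matches gather within 50 bases of the start, in 57.5% of the genes with a window, and CCAAT matches lie mostly before it.

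Among the inner kinetochore genes, all 11 tested were lower in BMAd-DTA mice, and their median stood at -0.30. At an unadjusted p of 0.05, 8 were lower, and DESeq2 called 3. Cenpa, the histone H3 variant that marks the centromere, had 138, 126, 95.6 and 109 CPM in Control 1 to 4 and lay between 80.7 and 108 CPM, with a median of 90.7 CPM, in the BMAd-DTA libraries. Control 3 was within the range of the BMAd-DTA libraries and 4 of the 7 lay below all controls, with a log2 fold change -0.34 ± 0.104 (SE) and an adjusted p of 0.129 (edgeR). Cenpk, a subunit of the CENP-H/I/K group of the constitutive centromere network, showed the largest difference of the group. Its level was 17.7, 12.96, 15.7 and 15.1 CPM in Control 1 to 4, and it lay between 8.19 and 14.1 CPM, with a median of 11.3 CPM, in the BMAd-DTA libraries. Only BMAd-DTA 5 reached the controls, and the log2 fold change was -0.45 ± 0.136 (SE, adjusted p = 0.128). Cenpu, which binds the Plk1 kinase at kinetochores, had 19.5, 17.5, 18.02 and 17.6 CPM in Control 1 to 4 and lay between 10.8 and 17.5 CPM, with a median of 13.9 CPM, in the BMAd-DTA libraries. The groups did not overlap (log2 fold change -0.40 ± 0.119 (SE), adjusted p = 0.120), although the highest BMAd-DTA library was within 1 CPM of the lowest control. Cenpw, a histone-fold protein that pairs with Cenpt, had 8.60, 6.95, 5.73 and 7.05 CPM in Control 1 to 4 and lay between 5.13 and 8.05 CPM, with a median of 6.81 CPM, in the BMAd-DTA libraries. It showed the smallest difference of the group, at -0.12 ± 0.161 (SE, adjusted p = 0.777), and the groups overlapped broadly.

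The remaining inner kinetochore genes lay between these. Cenph (-0.40) and Cenpi (-0.35) are of the same group as Cenpk, with their log2 fold changes in brackets. Cenpp (-0.30), a partner of Cenpu in the CENP-O complex, Cenpn (-0.27), which reads Cenpa nucleosomes, and Cenpm (-0.24) followed. Cenpc1 (-0.22), the DNA-binding backbone of the platform, and Cenpt (-0.21), which also binds the Ndc80 complex, had small log2 fold changes. The 3 genes DESeq2 called were Cenpk, Cenpu and Cenpa. Cenpq, read from the per-library counts with 239 to 428 counts, had 23.1, 20.7, 13.9 and 20.6 CPM in Control 1 to 4 and 15.1 to 19.4 CPM in the BMAd-DTA libraries, with a median of 16.8 CPM. No BMAd-DTA library lay below Control 3, and its log2 fold change was -0.19 ± 0.123 (SE, edgeR adjusted p = 0.488 in that table).

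Outer kinetochore genes had the same sign and a larger median, -0.37, with 8 of 8 lower at an unadjusted p of 0.05 and 6 called by DESeq2. Whether this group differed from the inner kinetochore was not tested. Cenpf, a large coiled-coil protein that joins the kinetochore in G2, had 179.8, 161, 138 and 123 CPM in Control 1 to 4 and lay between 88.5 and 129 CPM, with a median of 105 CPM, in the BMAd-DTA libraries. Only BMAd-DTA 5 exceeded the lowest control, Control 4, and the log2 fold change -0.50 ± 0.11 (SE) had an adjusted p of 0.0720 with edgeR and 0.00252 with DESeq2. Knl1, the scaffold that Bub1 and Bub3 dock on, had 104, 96.7, 71.9 and 87.5 CPM in Control 1 to 4 and lay between 56.8 and 75.5 CPM, with a median of 62.6 CPM, in the BMAd-DTA libraries. Again 6 of the 7 lay below every control, with a log2 fold change -0.47 ± 0.0998 (SE) and an adjusted p of 0.0675 (edgeR), the lowest among all 45 genes together with Kif23. Cenpe, a plus-end kinesin that brings chromosomes to the metaphase plate, had 159, 120.02, 116 and 116 CPM in Control 1 to 4 and lay between 74.5 and 110.1 CPM, with a median of 94.9 CPM, in the BMAd-DTA libraries. The groups did not overlap, with a log2 fold change of -0.47 ± 0.113 (SE) and an adjusted p of 0.0774 (edgeR). The exact permutation test, two-sided and unadjusted, gave p = 0.00303, the smallest that 4 against 7 libraries allow. Control 1 stood well above the other 3 controls, which lay between 116 and 120.02 CPM.

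Ndc80, the microtubule-binding subunit that names its complex, had 38.4, 31.03, 32.5 and 33.2 CPM in Control 1 to 4 and lay between 20.3 and 31.3 CPM, with a median of 27.2 CPM, in the BMAd-DTA libraries. The highest BMAd-DTA libraries reached Control 2, and the log2 fold change was -0.34 ± 0.114 (SE, adjusted p = 0.158). Spc25, of the same complex, had 50.5, 39.2, 38.1 and 36.5 CPM in Control 1 to 4 and lay between 30.7 and 34.3 CPM, with a median of 32.9 CPM, in the BMAd-DTA libraries, with no overlap and a narrow spread in BMAd-DTA mice. Its log2 fold change was -0.33 ± 0.0853 (SE, adjusted p = 0.0957). Nuf2, the partner of Ndc80, had 73.4, 60.2, 55.01 and 61.2 CPM in Control 1 to 4 and lay between 41.2 and 61.8 CPM, with a median of 49.5 CPM, in the BMAd-DTA libraries, which was the smallest difference of the group at -0.32 ± 0.101 (SE, adjusted p = 0.141). The highest BMAd-DTA library exceeded 3 of the 4 controls. Spc24 (-0.32) completed the complex, whose 4 subunits thus had log2 fold changes from -0.34 to -0.32. Zwilch, of the complex that brings dynein to kinetochores, had a log2 fold change of -0.40.

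Spindle checkpoint genes had a median of -0.26, with 5 of 5 negative, 3 at an unadjusted p under 0.05 and 0 called by either edgeR or DESeq2. With the erythroid covariate the median was -0.25, where the inner and outer kinetochore had -0.14 and -0.24. None of the 5 was among the 8 genes with an unadjusted p under 0.05 (edgeR) with that covariate. Erythroid marker scaling gave the checkpoint genes a median of 0.12. Bub1, a kinase that phosphorylates histone H2A at kinetochores, had 57.3, 43.6, 43.4 and 51.1 CPM in Control 1 to 4 and lay between 36.2 and 47.7 CPM, with a median of 37.7 CPM, in the BMAd-DTA libraries. BMAd-DTA 7 alone exceeded the lowest control, and the log2 fold change was -0.32 ± 0.0961 (SE, adjusted p = 0.129). Bub1b, the BubR1 component of the inhibitor of the APC/C, had 110.4, 97.5, 88.5 and 114 CPM in Control 1 to 4 and lay between 73.01 and 99.2 CPM, with a median of 86.1 CPM, in the BMAd-DTA libraries. In 6 of the 7 libraries it was below every control, at -0.26 ± 0.0859 (SE, adjusted p = 0.151). Mad2l1, the protein that captures Cdc20, had 109.6, 87.4, 68.7 and 88.1 CPM in Control 1 to 4 and lay between 68.6 and 83.3 CPM, with a median of 70.1 CPM, in the BMAd-DTA libraries. Control 3 was as low as the lowest BMAd-DTA library, and only 1 of the 7 was below all controls (log2 fold change -0.26 ± 0.107 (SE), adjusted p = 0.235). Ttk, the Mps1 kinase that starts checkpoint signalling, had 33.4, 27.6, 22.8 and 38.9 CPM in Control 1 to 4 and lay between 19.1 and 31.1 CPM, with a median of 26.8 CPM, in the BMAd-DTA libraries. Its controls spread widely, with Control 4 highest, and the log2 fold change -0.23 ± 0.147 (SE) had an adjusted p of 0.474. Bub3, a WD repeat adaptor, had 146, 122, 129.6 and 129 CPM in Control 1 to 4 and lay between 114 and 129 CPM, with a median of 124 CPM, in the BMAd-DTA libraries. This was the smallest difference of all 45 genes, at -0.099 ± 0.0620 (SE, adjusted p = 0.459), and apart from Control 1 the controls lay close to the BMAd-DTA libraries.

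**Figure D5:**
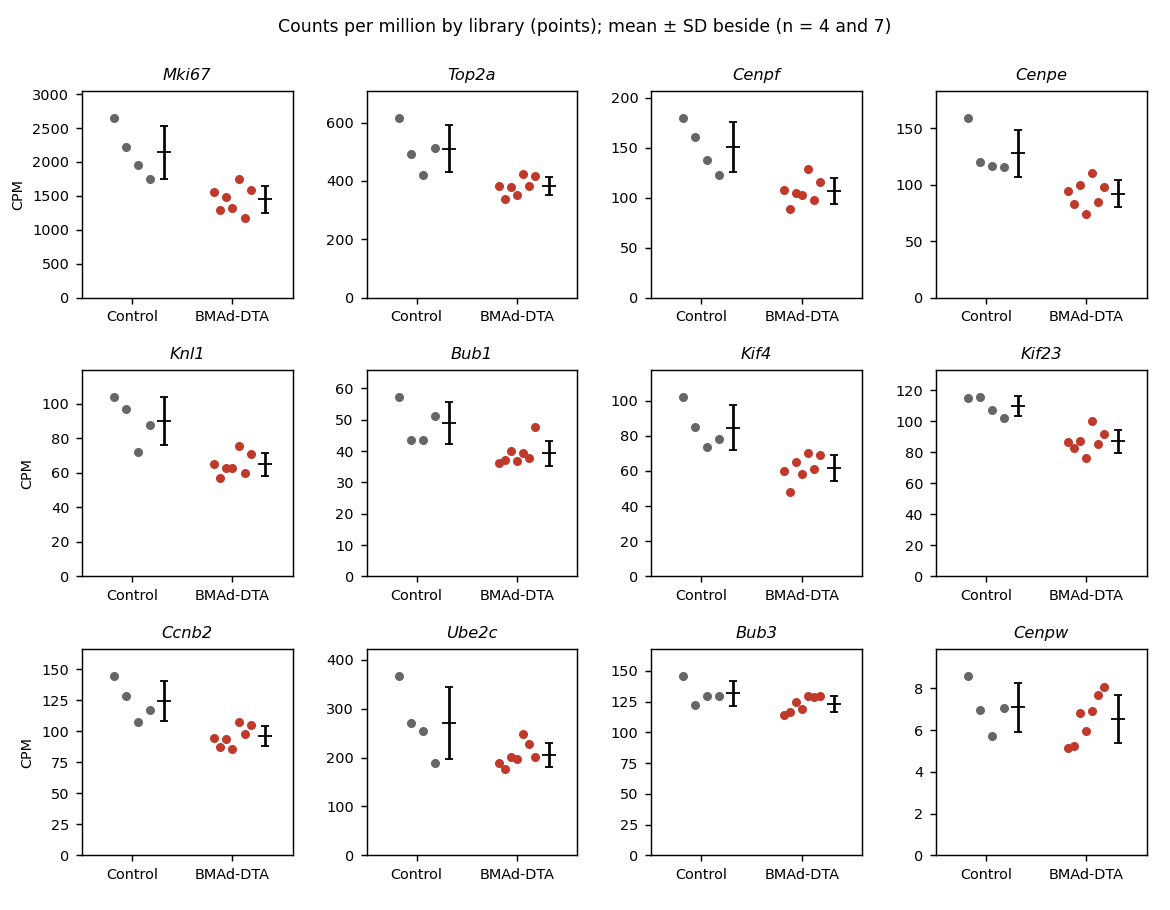
CPM (vertical axes, starting at 0) of 12 mitotic genes in each library (points: 4 controls in grey, 7 BMAd-DTA in red), with the mean and SD of each group beside the points. Cenpe, Kif4 and Kif23 show no overlap, Mki67, Top2a, Cenpf, Knl1, Bub1 and Ccnb2 overlap through 1 library, and Ube2c, Bub3 and Cenpw overlap broadly.

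The mitotic kinases and the chromosomal passenger complex were lower in 6 of 6 genes at an unadjusted p of 0.05 (median log2 fold change -0.28), and DESeq2 called 4. Plk1, the polo-like kinase of mitotic entry and centrosome maturation, had 159.7, 121, 103 and 127 CPM in Control 1 to 4 and lay between 87.3 and 121 CPM, with a median of 106 CPM, in the BMAd-DTA libraries. The BMAd-DTA range took in Control 3 and ended just below Control 2, and the log2 fold change -0.28 ± 0.111 (SE) had an adjusted p of 0.232. Aurka, the centrosomal Aurora kinase, had 91.1, 73.3, 68.1 and 63.5 CPM in Control 1 to 4 and lay between 53.8 and 69.3 CPM, with a median of 60.2 CPM, in the BMAd-DTA libraries, so that the lowest 2 controls were within the BMAd-DTA range (-0.28 ± 0.0993 (SE), adjusted p = 0.177). Aurkb, the kinase of the passenger complex, had 119.98, 97.3, 92.2 and 103 CPM in Control 1 to 4 and lay between 81.5 and 96.4 CPM, with a median of 83.3 CPM, in the BMAd-DTA libraries. Its log2 fold change of -0.26 ± 0.0761 (SE, adjusted p = 0.119) was the smallest of the group. Birc5, or survivin, which places the complex at the centromere, had 184, 134, 122 and 113 CPM in Control 1 to 4 and lay between 97.7 and 120.2 CPM, with a median of 103 CPM, in the BMAd-DTA libraries. It showed the largest difference of the group, -0.39 ± 0.113 (SE, adjusted p = 0.119), with only the highest BMAd-DTA library above Control 4. Cdca8, or borealin (-0.35), and the scaffold Incenp (-0.29) lay between these. DESeq2 called Birc5, Cdca8, Incenp and Aurkb, which are the 4 subunits of the passenger complex.

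Spindle motors and midzone proteins were lower in 8 of 8 genes at an unadjusted p of 0.05, with a median of -0.34, and 6 were called by DESeq2. This group held 4 of the 7 genes without overlap. Kif4, a chromosome-bound kinesin that shortens the central spindle, had 102, 84.9, 73.4 and 78.2 CPM in Control 1 to 4 and lay between 48.3 and 69.96 CPM, with a median of 61.05 CPM, in the BMAd-DTA libraries. It was the lowest of the group, with a log2 fold change of -0.46 ± 0.107 (SE) and an adjusted p of 0.0727 (edgeR). Kif23, the motor of the centralspindlin complex, had 115, 116, 107 and 102 CPM in Control 1 to 4 and lay between 76.5 and 100.3 CPM, with a median of 86.6 CPM, in the BMAd-DTA libraries. Its 4 controls were close together and above all 7 BMAd-DTA libraries, and the log2 fold change -0.34 ± 0.0710 (SE) had an adjusted p of 0.0675 with edgeR and 0.00241 with DESeq2. Kif20b, a midzone kinesin, had 60.95, 50.6, 48.2 and 53.5 CPM in Control 1 to 4 and lay between 33.98 and 45.9 CPM, with a median of 41.8 CPM, in the BMAd-DTA libraries, with a log2 fold change of -0.37 ± 0.0853 (SE, adjusted p = 0.0726). Kif20a, which carries the passenger complex to the midzone, had 122, 102, 97.5 and 110.03 CPM in Control 1 to 4 and lay between 74.7 and 96.2 CPM, with a median of 91.3 CPM, in the BMAd-DTA libraries. Here the groups were separate by little more than 1 CPM (log2 fold change -0.30 ± 0.0861 (SE), adjusted p = 0.113).

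Kif11, the motor that separates the spindle poles, had 246, 207, 166 and 195 CPM in Control 1 to 4 and lay between 133 and 181 CPM, with a median of 158 CPM, in the BMAd-DTA libraries. Control 3 was within the BMAd-DTA range, and the log2 fold change was -0.37 ± 0.103 (SE, adjusted p = 0.108). Tpx2, the Aurka activator on spindle microtubules, had 225, 180.4, 159.8 and 173 CPM in Control 1 to 4 and lay between 129 and 168 CPM, with a median of 145 CPM, in the BMAd-DTA libraries. All but 1 of the BMAd-DTA libraries lay below every control (-0.33 ± 0.0924 (SE), adjusted p = 0.106). Kif2c, a kinesin that depolymerises microtubules at centromeres, had 48.99, 46.2, 42.1 and 48.1 CPM in Control 1 to 4 and lay between 36.2 and 44.9 CPM, with a median of 39.1 CPM, in the BMAd-DTA libraries. It had the smallest difference of the group, -0.22 ± 0.0746 (SE, adjusted p = 0.162). Prc1, the bundler of midzone microtubules, stood at -0.32.

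Genes of mitotic entry and exit had a median of -0.33, with 4 of 5 lower at an unadjusted p of 0.05 and 3 called by DESeq2, which were the cyclins Ccnb1 and Ccnb2 and their kinase Cdk1. Ccnb2 had 145, 129, 108 and 117 CPM in Control 1 to 4 and lay between 86.05 and 108 CPM, with a median of 94.98 CPM, in the BMAd-DTA libraries. Only 1 of the 7 reached Control 3, the lowest control, by less than 1 CPM, and the log2 fold change -0.37 ± 0.0864 (SE) had an adjusted p of 0.0724 with edgeR. Ccnb1 had 99.04, 91.9, 80.2 and 87.2 CPM in Control 1 to 4 and lay between 61.8 and 83.6 CPM, with a median of 70.3 CPM, in the BMAd-DTA libraries, with 6 of the 7 below every control (-0.33 ± 0.0828 (SE), adjusted p = 0.0860). Cdk1, the kinase that drives entry into mitosis, had 125, 107, 92.9 and 97.5 CPM in Control 1 to 4 and lay between 73.97 and 99.1 CPM, with a median of 85.3 CPM, in the BMAd-DTA libraries. The highest BMAd-DTA library exceeded 2 controls (-0.32 ± 0.0943 (SE), adjusted p = 0.117). Cdc20, the APC/C activator, had 101, 77.8, 77.8 and 86.1 CPM in Control 1 to 4 and lay between 65.7 and 92.5 CPM, with a median of 74.5 CPM, in the BMAd-DTA libraries. Its difference was the smallest of the group, -0.17 ± 0.0968 (SE, adjusted p = 0.416), and the groups overlapped over most of their range.

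Ube2c, the E2 enzyme that starts ubiquitin chains for the APC/C, had the largest difference of the entry and exit group and the widest control spread. It had 367, 271, 254 and 188 CPM in Control 1 to 4 and lay between 177 and 247 CPM, with a median of 200.3 CPM, in the BMAd-DTA libraries. Control 1 was the highest and Control 4 the lowest control, only 1 of the 7 BMAd-DTA libraries lay below all controls, and the log2 fold change -0.40 ± 0.143 (SE) had an adjusted p of 0.183. Without Control 1 the log2 fold change was -0.21, and with the erythroid score as a covariate it was 0.041. Its controls followed the order of the erythroid sums, 9704 CPM in Control 1 to 4775 CPM in Control 4. That order was not particular to Ube2c. It held in other genes, among them Mki67 and Cenpf, which stayed negative with that covariate (-0.27 and -0.21). Cenpw was the other gene whose sign changed with that covariate, to 0.063.

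Both mitotic chromosome genes were lower, with a median of -0.49, and both were called by DESeq2. Mki67 encodes the Ki-67 protein that coats mitotic chromosomes and is the usual marker of proliferation. It had 2648, 2221, 1950.1 and 1742 CPM in Control 1 to 4 and lay between 1173 and 1749 CPM, with a median of 1476 CPM, in the BMAd-DTA libraries. BMAd-DTA 5 was just above Control 4 and the other 6 lay below every control. The log2 fold change -0.56 ± 0.127 (SE) was the lowest of all 45 genes, with an adjusted p of 0.0720 with edgeR and 0.00142 with DESeq2. Top2a, the topoisomerase that untangles sister chromatids, had 616, 491, 421 and 513 CPM in Control 1 to 4 and lay between 339 and 422 CPM, with a median of 382 CPM, in the BMAd-DTA libraries. Its highest BMAd-DTA library exceeded Control 3 by less than 1 CPM, and the log2 fold change -0.42 ± 0.0944 (SE) had an adjusted p of 0.0720 (edgeR) and 0.00254 (DESeq2).

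By the exact permutation test, two-sided, over the 330 ways to choose 4 of the 11 libraries, 35 of the 45 genes had an unadjusted p under 0.05, against 7.6% of all genes in the lower direction. In 5 genes it was the smallest value the design allows, 0.00303, and the share of all genes at that value is not given here. Between edgeR and DESeq2 the fold changes hardly differed (the medians were -0.33 with both), and 12 genes would pass edgeR at an adjusted p of 0.1, against 1.11% of all genes in the lower direction.

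As the mean of the controls in CPM per kilobase of merged exons, Mki67 (213, chr7:135689784-135716361, minus strand) was highest, followed by Ube2c (104, chr2:164769898-164778822, plus strand), Ccnb2 (81.5, chr9:70407692-70421547, minus strand), Plk1 (58.01) and Top2a (56.6, chr11:98992943-99024189, minus strand). The lowest levels per kilobase were those of the inner kinetochore genes Cenpw (1.68, chr10:30194569-30200560, minus strand), Cenpk (2.93, chr13:104228611-104252392, plus strand), Cenpp (3.20) and Cenpi (3.78). Cenpa (20.00) and Cenpm (14.8) were the highest of the inner kinetochore. Merged exons take in every annotated transcript of a gene (4211 bases for Cenpw and 5860 for Cenpa), so the order of levels depends in part on that length. Positions are those of GENCODE M21 on GRCm38.

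Exons of 12 genes overlapped those of a gene on the other strand, and the counts are of the read strand. Counts on the other strand were 57% of the sense counts for Cenpu, which meets Primpol, and 62.2% for Cenpp, which meets Aspn and Ippk. Opposite-strand counts at Cenpp were 36 to 82 in controls and 66 to 118 in BMAd-DTA mice, which is the opposite direction to Cenpp itself. For Ube2c, whose exons meet those of the muscle troponin Tnnc2, they ranged from 1 to 876 within the groups, and its log2 fold change was -0.39 with unstranded counts and -0.33 with a skeletal muscle score as a covariate. Kif20a meets Cdc23, and its unstranded counts were 0.522 of the sense counts because pairs on both genes are then ambiguous. With unstranded counts all 45 genes still had negative log2 fold changes, with a median of -0.33.

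Other genes of the same processes, fixed as 9 lists of 113 genes, were lower in 98 and higher in 15, with a median of -0.23 (with erythroid marker scaling all 9 medians were positive). At an unadjusted p of 0.05, 62 were lower, against 8.53% of all genes, and 2 were higher, against 1301 of all 16496 genes. DESeq2 called 33 lower, against 2.7% of the genes to which it gave an adjusted p. In 9 every BMAd-DTA library lay below every control, against 1.04% of all genes, and 0 passed edgeR at an adjusted p of 0.05. Spindle assembly factors and further motors were lower in 19 of 19 (median -0.34), from Aspm, which focuses spindle poles (-0.52 ± 0.112 (SE), adjusted p = 0.0675), to the gamma-tubulin Tubg1 (-0.073). Condensin genes were lower in 8 of 8 (median -0.36), from Smc2 (-0.49) to Ncaph2 (-0.11). Cohesion and separase genes were lower in 13 of 14 (median -0.27), from the protector of centromeric cohesion Sgo2a (-0.44) to securin, Pttg1 (0.086). The Mis12, RZZ and Ska complexes with their partners were lower in 13 of 13, with a smaller median of -0.17, from Kntc1 (-0.43) to Pmf1 (-0.090). Centromere loading and remaining inner kinetochore genes were lower in 8 of 10 (median -0.14), and the highest was Itgb3bp (0.26).

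Cytokinesis genes were lower in 5 of 5 (median -0.26), from the citron kinase Cit (-0.41) to Cep55 (-0.16). Genes of G2/M transcription and CDK1 control were lower in 17 of 19 (median -0.23), from Mybl2, the B-Myb factor of mitotic gene transcription (-0.39 ± 0.0772 (SE), adjusted p = 0.0675), to Lin37 (0.15), of the DREAM complex. Subunits, activators and inhibitors of the APC/C were lower in 12 of 17 and near 0 by their median, -0.051, from the inhibitor Fbxo5, or Emi1 (-0.40), to Anapc16 (0.10). Control of the mitotic exit phosphatase was the list with a positive median, 0.044, with 3 of 8 lower, from the Greatwall kinase Mastl (-0.30) to Cdc14b (0.19). These last 2 lists had the medians nearest to 0. No test of a difference between lists was made.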

How the data were processed

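Per the study's methods and the labels, total RNA of whole distal tibiae was made into strand-specific libraries, and the authors checked reads with FastQC 0.11.9 and aligned them to mm10 with STAR. They deposited counts of read pairs per gene, not normalized, for each library (55401 genes) and as a merged table (22600 genes). The genes outside the merged table held 1.32% to 1.71% of the counts of each library. The annotation release was not given in the sources used here. No deposited column was left unmatched to a sample. Groups came from the labels, and each library is a separate mouse.

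The test was edgeR's (version 4.0.16, under R 4.3.3: filterByExpr, TMM, glmQLFit and glmQLFTest, two-sided, Benjamini-Hochberg adjustment over 16496 genes). Standard errors were derived by dividing each log2 fold change by the root of its F statistic. CPM deviations used a prior count of 2. DESeq2 1.42.0 and limma-voom (limma 3.58.1) on the same genes, other scalings, filters, count tables, covariates and each library left out were alternatives. Depth was even, so counting error was small for all but the lowest genes. The steps were tested on simulated data.

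The genes and all lists were chosen with earlier results of these data known. All 46 genes were to be accounted for, with values by library for 24 well-known ones and for the 2 extremes of each role, and the lowest and highest gene of each other list, of which 1 is not reported here. The genes without overlap were named as well, and the promoters shown were chosen after the motif positions were seen. Identifiers were joined to GENCODE M21 (GRCm38, which is mm10) without their version (45 of 45 matched). Promoter sequences are those of RefSeq (GRCm38.p6), with an entry for 40 genes and none for Aurkb, Kif20a, Tpx2, Spc24, Zwilch and Incenp. A planned search for degradation motifs in the proteins was not made, and protein sequences are not used here.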

Additional observations from a re-analysis of the deposited data

Results flagged for a closer look

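Among the 92 groups of values examined (45 genes and the median deviation over them, each in the 4 controls and in the 7 BMAd-DTA libraries), 5 had a highest or lowest library set apart from the others by Dixon's criterion, and chance alone gives about 1 in 20. Cenpe was high in Control 1, at 159 CPM against 116 to 120.02 CPM in the other controls. Bub1 was high in BMAd-DTA 7, at 47.7 CPM against 36.2 to 39.9 CPM in the other BMAd-DTA libraries. Cenpi (12.1 CPM against 16.5 to 19.1 CPM) and Spc24 (20.9 CPM against 26.3 to 30.8 CPM) were low in BMAd-DTA 2, the library with the lowest median over all 45 genes. Kif20b was low in BMAd-DTA 4, at 34.0 CPM against 40.9 to 45.9 CPM.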

How the results depend on the processing

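The 45 genes had negative log2 fold changes under every alternative run but a pair added after the data were seen, the erythroid marker covariate and erythroid marker scaling. With the covariate the exceptions were Cenpw (0.063) and Ube2c (0.041). The median of all genes moved by less than 0.1 under each alternative but erythroid marker scaling, which moved it to 0.395. At an adjusted p of 0.05 edgeR called 0 genes and DESeq2 24, and the cause was not tested. At an adjusted p of 0.1 edgeR called 12. Limma-voom, the robust fit, other scalings, filters and count tables, and both covariates called 0. With a library left out, edgeR called 0 to 7, and the genes without overlap were 7 to 23, a count that leaving a library out tends only to raise. They were 2 rather than 7 with leukocyte marker scaling, for which the share of all genes is not given here. The erythroid covariate left 8 genes at an unadjusted p of 0.05 in place of 39, with the share of all genes under it not given here. It moved the median log2 fold changes to -0.14 (inner kinetochore), -0.24 (outer kinetochore), -0.25 (spindle checkpoint), -0.13 (mitotic kinases and passenger complex), -0.21 (spindle motors and midzone), -0.12 (entry and exit) and -0.28 (mitotic chromosome). For the other lists it gave -0.14 (cohesion), -0.21 (condensin), -0.11 (G2/M transcription), -0.17 (spindle assembly), -0.12 (cytokinesis), -0.14 (centromere loading), -0.064 (Mis12, RZZ and Ska), -0.0046 (APC/C) and 0.024 (exit phosphatase).

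Erythroid marker scaling left 8 genes negative, 0 at an unadjusted p of 0.05 with a negative sign and 0 without overlap. The median of the 45 genes was 0.075, and those of the roles were 0.094 (inner kinetochore), 0.033 (outer kinetochore), 0.12 (spindle checkpoint), 0.13 (kinases and passenger complex), 0.072 (motors and midzone), 0.070 (entry and exit) and -0.073 (mitotic chromosome). The other lists had medians of 0.26 (centromere loading), 0.23 (Mis12, RZZ and Ska), 0.13 (cohesion), 0.048 (condensin), 0.32 (APC/C), 0.076 (spindle assembly), 0.15 (cytokinesis), 0.43 (exit phosphatase) and 0.17 (G2/M transcription). The log2 fold changes of the 37 genes that turned positive were Zwilch 0.0076, Ccnb2 0.035, Kif20b 0.037, Cenph 0.040, Kif11 0.043, Cenpi 0.050, Birc5 0.058, Ndc80 0.058, Spc24 0.060, Ccnb1 0.063, Kif23 0.066, Ube2c 0.070, Cenpa 0.072, Bub1 0.075, Cdca8 0.075, Tpx2 0.077, Cdk1 0.087, Kif20a 0.087, Nuf2 0.088, Cenpp 0.094, Prc1 0.10, Spc25 0.10, Bub1b 0.11, Ttk 0.12, Incenp 0.12, Cenpn 0.13, Plk1 0.13, Aurkb 0.14, Aurka 0.15, Mad2l1 0.15, Cenpm 0.15, Cenpc1 0.16, Kif2c 0.17, Cenpt 0.22, Cdc20 0.23, Cenpw 0.28 and Bub3 0.30, all below the median of all genes. Because this scaling shifts every gene by a similar amount, their place below that median restates the result with TMM factors. Control 1 was the highest control in 41 genes. No paired analysis was possible because the labels give no replicate numbers shared between the groups.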
